A study of Mus musculus with 2 samples.

Results

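Hox genes encode homeodomain transcription factors that lie in clusters, called Hoxa, Hoxb, Hoxc and Hoxd in the mouse, and that are numbered as paralog groups 1 to 13 by their place in the cluster. The members described here were all probe sets of the array whose annotation named exactly 1 gene and whose symbol was that of a Hox gene of the 4 clusters. This rule took 48 probe sets of 33 genes out of 34945 probe sets named for 1 gene and 18193 genes, against 39 Hox genes in the RefSeq annotation. The other 6 were not analysed here. A further 3 probe sets carried several symbols with a Hox gene among them (*Hoxd4* with *Hoxd3* on a pair of them, *Hoxb8* with *Hoxb7* on the other) and were not used.

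Total RNA from cultured superficial zone (SFZ) cells, which line the joint surface, and from cultured costal chondrocytes (CC), freed from ribs with collagenase, was hybridised to an Affymetrix expression array of the mouse genome. Both cell types came from ICR mice at postnatal day 4, with no allele or treatment named for either, and were kept in DMEM with 10% FBS. The comparison asked which transcription factors were expressed in SFZ cells and not in CC. Each cell type was measured on 1 array from 100 ng of total RNA, so no difference below has a replicate check, none was tested, and no error can be given. The 2 cell types differ in body position, in cartilage zone and in the other cells present, and these cannot be told apart here.

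During development, Hox genes are switched on in the order in which they lie on the chromosome, those at the 3′ end of a cluster (low numbers) in anterior tissue and those at the 5′ end (high numbers) in progressively more posterior tissue. Cells of the skeleton keep much of this positional pattern after birth and in culture. In the limb, the genes of groups 9 to 13 of the Hoxa and Hoxd clusters pattern the segments between shoulder or hip and digits, whereas in the trunk the middle groups set the identity of rib-bearing vertebrae.

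A MAS5 signal is the linear brightness of a probe set, and values of different probe sets cannot be set against each other because each binds with its own strength. A probe set was counted as higher in a cell type where its signal there exceeded 100 and was more than 2 times that on the other array, which are the thresholds of the study for SFZ cells, mirrored here for CC. The background level was the 95th percentile of 83 probe sets for olfactory, vomeronasal and taste receptors, which these cells should not express. It came to 28.2 for SFZ cells and to 26.2 for CC. A ratio whose dimmer signal did not exceed this level is given only as a lower limit on the fold difference. Of the 33 Hox genes, 10 were above background on both arrays, 5 on the SFZ array only, 7 on the CC array only and 11 on neither.

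The promoters of 5 genes that stood on opposite sides of the comparison are shown here because 4 of them, *Hoxa5*, *Hoxa7*, *Hoxa10* and *Hoxa11*, lie in a single cluster on chromosome 6 and *Hoxd9* lies on chromosome 2. *Hoxa10*, *Hoxa11* and *Hoxd9* were higher in SFZ cells, and *Hoxa5* and *Hoxa7* were higher in CC. Each sequence is the 250 bases before an annotated transcription start in RefSeq on GRCm38.p6, written 5′ to 3′ on the strand of the gene, and *Hoxa10* has 2 annotated starts. Capitals mark TTTAT on either strand (ATAAA on the strand shown), the core recognised by homeodomains of groups 9 to 13. The windows are chr6:52234940-52235189 and chr6:52240855-52241104 for *Hoxa10*, chr6:52245811-52246060 for *Hoxa11*, chr6:52204588-52204837 for *Hoxa5* and chr6:52218574-52218823 for *Hoxa7*, all on the minus strand, and chr2:74697513-74697762 on the plus strand for *Hoxd9*.
Hoxa10, downstream start: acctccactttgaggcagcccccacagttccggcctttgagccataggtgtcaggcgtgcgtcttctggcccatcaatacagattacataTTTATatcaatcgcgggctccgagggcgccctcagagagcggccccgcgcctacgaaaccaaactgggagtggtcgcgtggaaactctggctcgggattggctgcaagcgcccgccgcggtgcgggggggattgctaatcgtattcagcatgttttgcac
Hoxa10, upstream start: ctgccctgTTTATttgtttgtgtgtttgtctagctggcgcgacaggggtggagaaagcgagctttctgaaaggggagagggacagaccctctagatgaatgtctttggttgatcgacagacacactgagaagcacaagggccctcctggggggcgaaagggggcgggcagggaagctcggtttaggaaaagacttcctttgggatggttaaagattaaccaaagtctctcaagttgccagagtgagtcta
Hoxa11: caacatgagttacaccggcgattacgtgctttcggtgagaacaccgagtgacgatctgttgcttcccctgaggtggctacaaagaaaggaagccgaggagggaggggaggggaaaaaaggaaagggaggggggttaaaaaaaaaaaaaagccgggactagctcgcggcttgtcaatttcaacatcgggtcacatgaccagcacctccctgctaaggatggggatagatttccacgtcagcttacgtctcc
Hoxd9: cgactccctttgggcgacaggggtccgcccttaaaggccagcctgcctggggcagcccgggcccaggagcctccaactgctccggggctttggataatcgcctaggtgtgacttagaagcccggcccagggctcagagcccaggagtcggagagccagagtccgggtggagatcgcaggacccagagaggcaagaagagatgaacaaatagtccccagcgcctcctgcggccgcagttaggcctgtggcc
Hoxa5: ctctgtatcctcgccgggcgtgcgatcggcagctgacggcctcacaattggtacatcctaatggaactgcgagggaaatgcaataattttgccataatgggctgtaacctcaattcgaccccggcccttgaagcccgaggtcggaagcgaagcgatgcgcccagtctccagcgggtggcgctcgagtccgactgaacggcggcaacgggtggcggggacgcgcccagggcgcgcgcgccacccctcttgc
Hoxa7: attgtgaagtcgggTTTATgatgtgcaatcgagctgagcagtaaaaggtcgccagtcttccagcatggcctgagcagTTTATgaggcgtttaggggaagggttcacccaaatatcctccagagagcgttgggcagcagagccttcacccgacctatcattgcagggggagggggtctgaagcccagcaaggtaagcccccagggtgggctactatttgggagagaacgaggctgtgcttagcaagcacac

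The core occurred 1 time in each *Hoxa10* window and 2 times in that of *Hoxa7*, and these letters were not in the windows of *Hoxa11*, *Hoxd9* or *Hoxa5*. Over 24 windows of 22 Hox genes with an entry in the promoter table it was found in 9, and 37.3% of all 32851 windows held it. TGACAG, the core bound by the cofactor Meis, was in 2 of the 24 Hox windows and in 15.9% of all windows. TGATTNAT, a joint site of Pbx and Hox proteins that contains TTTAT where N is T, was in 2 of 24 and in 2.82%. CCAAT, a general promoter element, was in 14 of 24 and in 33.8%. All motifs were searched on both strands, and a match describes letters and not a bound site. The Hox windows had a median GC content of 58.6% (40.4% to 80%), with 52.4% over all windows.

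Hox genes above background differed between the cell types in both directions, with low paralog numbers mostly towards CC and high ones mostly towards SFZ cells. No gene of paralog groups 1, 12 or 13 with a probe set exceeded background on either array. Of the 33 genes, 6 were higher in SFZ cells (18.2%), where 1.37% of all genes were, and 7 were higher in CC (21.2%), where 6.17% of all genes were. By probe set, 7 of 48 were higher in SFZ cells (14.6%, with 0.947% over all probe sets) and 10 were higher in CC (20.8%, with 4.33% over all). The genes higher in SFZ cells were *Hoxa9*, *Hoxa10*, *Hoxa11*, *Hoxc10*, *Hoxd8* and *Hoxd9*, and apart from *Hoxd8* these are Hox genes that the study listed from the same arrays, so their count is not independent evidence of its direction. The genes higher in CC were *Hoxa3*, *Hoxa5*, *Hoxa7*, *Hoxb2*, *Hoxb3*, *Hoxc6* and *Hoxc8*. No gene had probe sets past the thresholds in both directions.

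**Figure D1:**
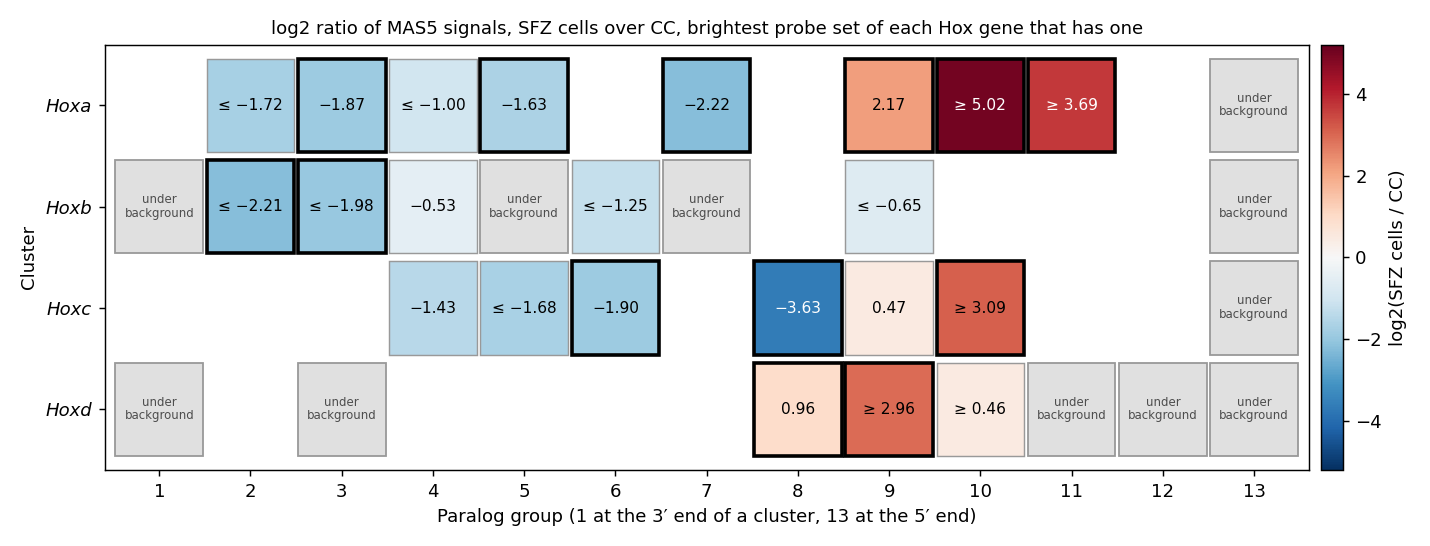
The log2 ratio of SFZ cells over CC is shown for each of the 33 Hox genes on its brightest probe set, with the 4 clusters down the page and paralog groups 1 to 13 across it. Thick outlines mark genes past the thresholds on any probe set, ≥ and ≤ mark limits set by the background level, and grey marks genes under background on both arrays. All coloured boxes of groups 1 to 7 are blue, and those of groups 9 to 11 are red apart from *Hoxb9* at −0.65 or lower.

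Summarised over the brightest probe set of each gene, with signals raised to the background level, the log2 ratios (SFZ cells over CC) had a median of −1.93 over 4 genes of groups 1 to 3, −1.53 over 10 genes of groups 4 to 8 and 2.57 over 8 genes of groups 9 to 13. The median over 12464 genes of the array treated alike was −0.18, with 5% of genes under −1.51 and 5% over 0.66. The value for groups 9 to 13 lies midway between *Hoxa9* at 2.17 and *Hoxd9*, whose 2.96 is a lower limit. With the 6 genes of these groups under background kept at a ratio of 1, the median was 0.23. In groups 1 to 7, none of the 12 genes above background had a ratio over 1. In groups 9 to 13, 7 of 8 did. Of these 8 genes, 5 were above background on the SFZ array only and *Hoxb9* on the CC array only. In groups 1 to 8, 6 genes were above background on the CC array only. The filter fixed the side of all such genes, so these counts are partly built in. Across the 22 genes above background, which share the same pair of arrays and include 12 limits, Spearman's rho between paralog number and log2 ratio was 0.71. The filter sets the side of the 12 limits, and the brightness of the probe set sets their size. This rho is therefore partly built in and is a description only.

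The genes of groups 1 to 3 act in the hindbrain, pharyngeal arches and neck. *Hoxa3*, which is needed for the thymus and parathyroid, read 34.6 in SFZ cells and 127 in CC on its brightest probe set, 3.67-fold higher in CC. A second *Hoxa3* probe set read 21.9 in SFZ cells and 149 in CC, at least 5.28-fold higher in CC, and the other 2 were under background on both arrays. The gene was therefore above background in CC on 2 probe sets and close to or under background in SFZ cells on all 4. *Hoxb2*, a hindbrain gene of facial motor neurons, read 18.2 in SFZ cells and 130 in CC, at least 4.62-fold higher in CC. *Hoxb3* read 16.8 in SFZ cells and 112 in CC on its brightest probe set, at least 3.96-fold higher in CC. Its second probe set was under background on both arrays. *Hoxb2* and *Hoxb3* were under background in SFZ cells, as was *Hoxa2*, the selector gene of the second pharyngeal arch. *Hoxa2* read 8.17 in SFZ cells and 92.6 in CC and missed the signal threshold with a difference of at least 3.28-fold. *Hoxb1*, *Hoxd1* and *Hoxd3* were under background on both arrays.

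The genes of groups 4 to 8 pattern the neck and thorax. *Hoxc8*, which sets the identity of thoracic vertebrae and ribs in the mouse, read 83.5 in SFZ cells and 1032 in CC on its only probe set, 12.4-fold higher in CC. *Hoxa5*, a gene of the neck and upper thorax and of lung development, read 136 in SFZ cells and 421 in CC on one probe set (3.09-fold higher in CC) and 83.3 in SFZ cells and 528 in CC on the other (6.35-fold higher in CC). *Hoxa7*, a thoracic gene, read 47.6 in SFZ cells and 222 in CC, 4.67-fold higher in CC. All 3 genes were above background in SFZ cells as well.

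*Hoxc6*, another thoracic gene, was the only gene whose probe sets above background lay on both sides. It read 53.1 in SFZ cells and 198 in CC on the brightest probe set (3.72-fold higher in CC), 58.2 in SFZ cells and 177 in CC on a second (3.04-fold higher in CC), and 54.4 in SFZ cells and 38.9 in CC on the last (ratio 1.40). All 3 were above background on both arrays. The call rests on the first 2 probe sets.

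A further 5 genes of groups 4 to 6, *Hoxa4*, *Hoxb4*, *Hoxb6*, *Hoxc4* and *Hoxc5*, had CC signals between background and the threshold of 100 on their brightest probe set. *Hoxc4*, a gene of the cervical region, read 32.6 in SFZ cells and 87.7 in CC, 2.69-fold higher in CC. *Hoxc5* read 13.97 in SFZ cells and 90.1 in CC (at least 3.20-fold higher in CC) on its brightest probe set and 9.92 in SFZ cells and 35.2 in CC (at least 1.25-fold higher in CC) on a second. *Hoxa4* read 9.68 in SFZ cells and 56.5 in CC, at least 2.01-fold higher in CC. These 3 genes and *Hoxb6*, at 11.6 in SFZ cells and 66.8 in CC (at least 2.37-fold higher in CC), missed the signal threshold only. *Hoxb4*, known for the expansion of blood stem cells, read 38.9 in SFZ cells and 56.0 in CC, 1.44-fold higher in CC, and passed neither threshold. *Hoxb5* and *Hoxb7* were under background on both arrays, as were the second probe sets of *Hoxa4* and *Hoxb4*. The last *Hoxc5* probe set, also under background on both, read 11.6 in SFZ cells and 3.15 in CC.

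*Hoxd8* stood apart from the other genes of groups 1 to 8. It read 229 in SFZ cells and 117 in CC (ratio 1.95) on the brightest probe set and 139 in SFZ cells and 38.2 in CC (ratio 3.63) on the second, so that only the second passed the ratio threshold as deposited. With equal medians or quantiles the brightest passed as well (log2 ratio 1.15 and 1.23). Both probe sets were above background on both arrays and read higher in SFZ cells. *Hoxd8* and its paralog *Hoxc8* therefore differed in opposite directions.

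**Figure D2:**
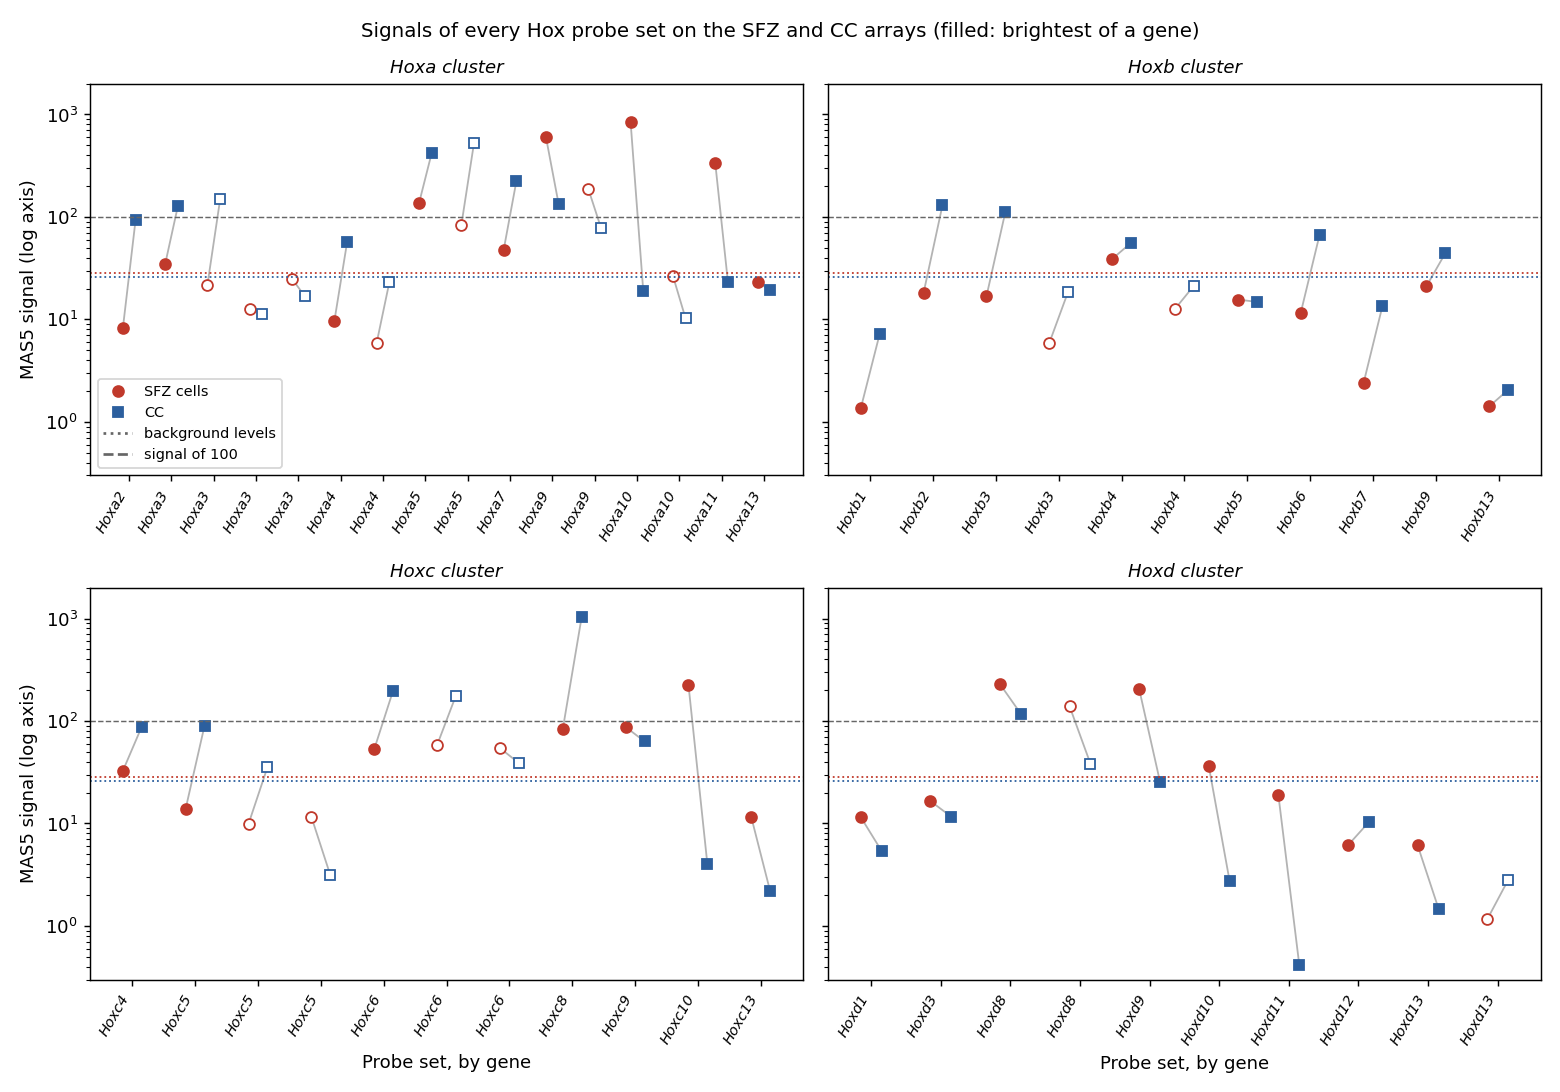
The MAS5 signal of each of the 48 Hox probe sets is plotted on a log axis for SFZ cells (red circles) and CC (blue squares), by cluster, with filled symbols for the brightest probe set of a gene, dotted lines at the background levels (28.2 and 26.2) and a dashed line at 100. *Hoxa10* at 848 in SFZ cells and *Hoxc8* at 1032 in CC reach the top of their panels, and in the Hoxb panel no SFZ signal exceeds 38.9.

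The genes of groups 9 to 13 are the posterior genes, and group 9 held values on both sides. *Hoxa9*, which acts with its paralogs at the limb bud stage and in blood progenitors, read 601 in SFZ cells and 134 in CC on one probe set (ratio 4.50) and 188 in SFZ cells and 78.4 in CC on the other (ratio 2.40). *Hoxd9* read 204 in SFZ cells and 25.4 in CC, at least 7.79-fold higher in SFZ cells. *Hoxa9* was above background in both cell types. *Hoxd9* lay just under it in CC, and with the background level set at the 90th percentile it was above it there too (log2 ratio 3.01). *Hoxc9*, a gene of thoracic motor neurons, read 87.5 in SFZ cells and 63.2 in CC (ratio 1.39). *Hoxb9* read 21.1 in SFZ cells and 44.3 in CC, at least 1.57-fold higher in CC. Neither of these 2 passed the thresholds, and *Hoxb9* was the sole posterior gene above background with a ratio under 1.

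All 3 genes of group 10, which in the mouse pattern the lumbar spine and the femur, were above background in SFZ cells and under it in CC. *Hoxa10* read 848 in SFZ cells and 18.9 in CC, at least 32.3-fold higher in SFZ cells, on the probe set that exceeded background. Its second probe set read 26.7 in SFZ cells and 10.2 in CC, both under background. *Hoxc10* read 224 in SFZ cells and 4.03 in CC, at least 8.54-fold higher in SFZ cells. *Hoxd10* read 36.2 in SFZ cells and 2.72 in CC, at least 1.38-fold higher in SFZ cells and short of both the signal threshold and a limit of 2. Since these are limits set by background, the 3 genes have no order among themselves.

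*Hoxa11*, which with *Hoxd11* patterns the bones of the forearm and acts in the lower leg, read 339 in SFZ cells and 23.4 in CC, at least 12.9-fold higher in SFZ cells. Its CC signal was also above a background level set at the 90th percentile (log2 ratio 3.86). *Hoxd11* read 18.8 in SFZ cells and 0.416 in CC, both under background. *Hoxd12* and the 4 genes of group 13, *Hoxa13*, *Hoxb13*, *Hoxc13* and *Hoxd13*, which pattern the digits and the hindmost body, were also under background on both arrays. Over the 19 Hox probe sets under background on both arrays, signals ran between 1.16 and 26.7 in SFZ cells and between 0.416 and 23.2 in CC, so presence of these transcripts below the background level could not be judged.

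Set out by cluster, Hoxa held 3 genes higher in SFZ cells and 3 higher in CC. Its median log2 ratio was −1.72 over 5 genes of groups 1 to 8 and 3.69 over 3 genes of groups 9 to 13. These medians are the values of *Hoxa2* and *Hoxa11*, which are limits set by background. The switch lay between *Hoxa7* and *Hoxa9*. Hoxc showed the same order. Its median was −1.79 over 4 genes of groups 1 to 8, with the limit of *Hoxc5* entering it, and 1.78 over 2 genes of groups 9 to 13. Its switch lay between *Hoxc8* and *Hoxc9*, but *Hoxc9*, at 0.47, missed the thresholds. The 1.78 lies midway between *Hoxc9* and *Hoxc10*, whose 3.09 is a lower limit. In Hoxb, 5 genes exceeded background and none had a ratio over 1 (median −1.25, the limit of *Hoxb6*). In Hoxd, 3 genes were above background, *Hoxd8*, *Hoxd9* and *Hoxd10*, and all had a ratio over 1 (median 0.96). Within clusters, Spearman's rho of paralog number with log2 ratio was 0.69 over 8 Hoxa genes and 0.70 over 5 Hoxb genes. It was 0.43 over 6 Hoxc genes and −0.50 over 3 Hoxd genes, too few genes in each for more than a description. Limits enter each rho, among them 4 of the 5 Hoxb values and those of *Hoxd9* and *Hoxd10*. The side of a limit follows from the filter and its size from the brightness of its probe set, so rho gives no order among limits. The negative Hoxd value rests on the limit of *Hoxd10*, 0.46.

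Repeat probe sets gave the only internal check on these values, and they cover one hybridisation. Of 11 genes with more than 1 probe set, 6 had at least 2 above background on at least 1 array. In 5 of these the ratios lay on one side (*Hoxa3*, *Hoxa5*, *Hoxa9*, *Hoxc5* and *Hoxd8*), and in *Hoxc6* on both. For *Hoxc5* both counted probe sets, and for *Hoxa3* 1 of them, were above background in CC only. The filter set their side, so they are no check of it. Only *Hoxa5*, *Hoxa9*, *Hoxd8* and *Hoxc6* had more than 1 probe set above background on both arrays. The log2 ratios of probe sets of the same gene lay 0.53 apart for *Hoxa3*, 0.90 for *Hoxd8*, 0.91 for *Hoxa9*, 1.04 for *Hoxa5*, 1.35 for *Hoxc5* and 2.38 for *Hoxc6*, with limits entering those of *Hoxa3* and *Hoxc5*. The other 22 genes, *Hoxa11*, *Hoxc8*, *Hoxc10* and *Hoxd9* among them, rest on 1 probe set each.

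**Figure D3:**
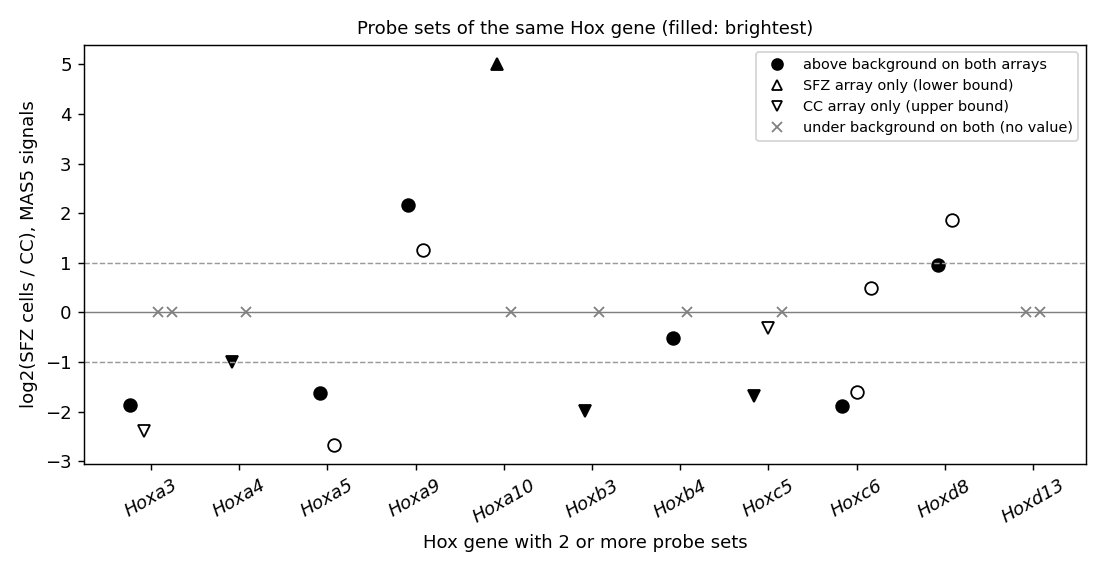
The log2 ratio of SFZ cells over CC is plotted for each probe set of the 11 Hox genes with more than 1, filled for the brightest, with triangles for limits and crosses at 0 for probe sets under background on both arrays, which have no value. Dashed lines stand at ratios of 2 in either direction, and *Hoxc6* alone has points on both sides of 0, at −1.90, −1.61 and 0.48.

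Scaling moved the arrays as a whole, and the same Hox genes passed the thresholds in each scaling. The array medians were 28.1 for SFZ cells and 32.0 for CC, and the median log2 ratio of all genes was −0.18 as deposited, 0.01 with the arrays at equal medians and 0.05 with equal quantiles. Among all probe-set calls, the share higher in SFZ cells was 18.0% as deposited, 31.9% with equal medians and 37.1% with equal quantiles. Of the 13 Hox genes called, 46.2% were higher in SFZ cells in all 3 scalings. By probe set, 8 in place of 7 were higher in SFZ cells after either scaling, as the brightest probe set of *Hoxd8* then passed. Likewise 8 of 22 Hox genes above background had a ratio over 1 in each scaling, none of them in groups 1 to 7. For genes above background on 1 array only, that side follows from the filter.

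**Figure D4:**
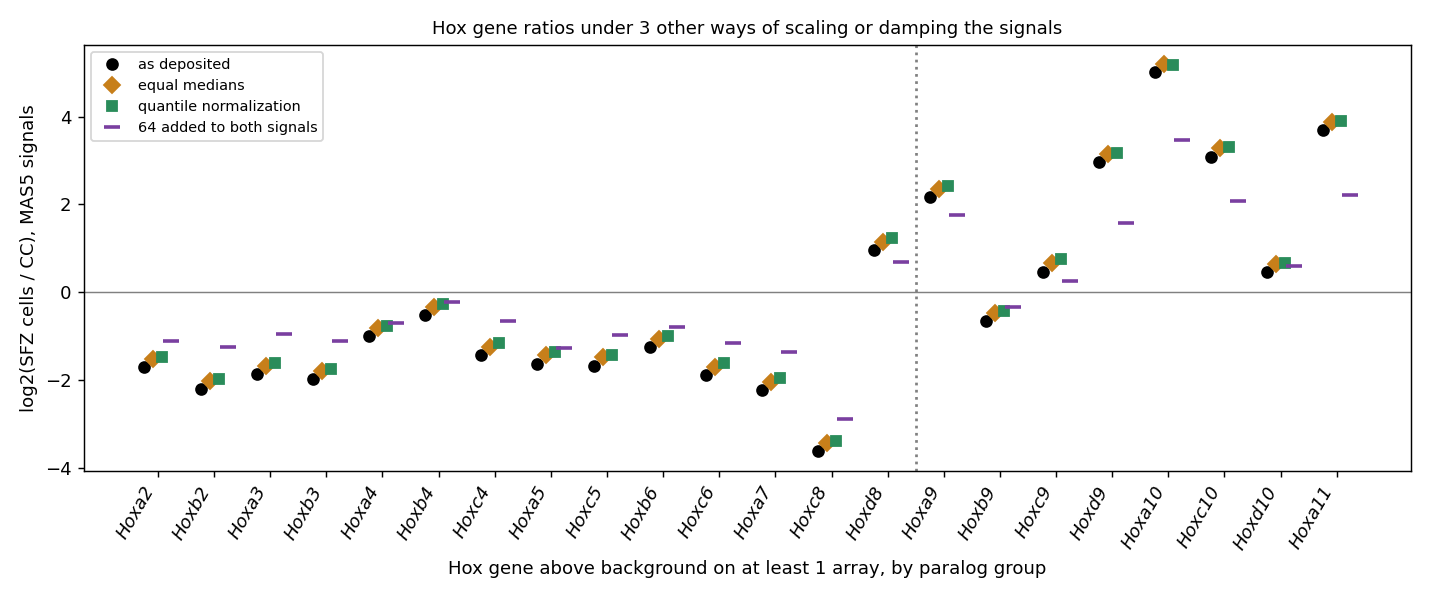
Each Hox gene that exceeded background on at least 1 array (22 genes) is plotted by its log2 ratio of SFZ cells over CC, ordered by paralog group with a dotted line before group 9, as deposited (black circles), with equal medians (orange diamonds), with quantile normalization (green squares) and with 64 added to both signals (purple bars). No gene crosses 0 in any of these, and with 64 added *Hoxa10* lies at 3.46 and *Hoxc8* lies at −2.89.

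Hox proteins bind DNA together with the TALE homeodomain cofactors of the Meis, Pbx and Pknox families. Of 9 such genes, 8 had a probe set and 7 exceeded background. None was higher in SFZ cells, whereas 5 were in CC, and the shares over all genes were 1.37% towards SFZ cells and 6.17% towards CC. Their median log2 ratio was −1.31, that of all genes −0.18. *Meis2*, a gene of the proximal limb and trunk, read 68.9 in SFZ cells and 676 in CC, 9.81-fold higher in CC. *Meis1* read 49.99 in SFZ cells and 332 in CC, 6.63-fold higher in CC. *Pbx3* read 109 in SFZ cells and 468 in CC (4.29-fold higher in CC), and *Pknox2* 41.0 in SFZ cells and 102 in CC (2.49-fold higher in CC). The fifth, *Pbx2*, passed on 1 of its 3 probe sets and read 296 in SFZ cells and 512 in CC on the brightest.

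The regulators that set or maintain Hox expression, among them retinoic acid, Cdx, Trithorax and Polycomb genes, had a median log2 ratio of −0.23, close to the −0.18 of all genes. Of 31 regulators, 30 had a probe set and 24 exceeded background. None was higher in SFZ cells, and *Cyp26b1* and, on 1 probe set, *Jarid2* were higher in CC, a count near the share over all genes (6.17%). *Cyp26b1*, which degrades retinoic acid and keeps the distal limb free of it, read 42.3 in SFZ cells and 165 in CC, 3.91-fold higher in CC. The Polycomb gene *Cbx8* read 20.5 in SFZ cells and 51.7 in CC (at least 1.84-fold higher in CC), *Men1* 131 in SFZ cells and 199 in CC, and the retinoic acid receptor *Rara* 35.0 in SFZ cells and 54.4 in CC, all short of the thresholds. The other *Men1* probe sets lay on opposite sides. The first read 40.3 in SFZ cells and 88.1 in CC, and the last read 50.3 in SFZ cells and 36.2 in CC. *Cdx1*, *Cdx2*, *Cdx4* and *Gdf11*, which act on Hox genes in the early embryo, were under background on both arrays.

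Genes that lie in or beside the clusters gave values for the neighbourhood. Of 18 neighbours, 13 had a probe set and 10 exceeded background, with 1 higher in SFZ cells, 1 higher in CC and a median log2 ratio of −0.02. The shares over all genes, 1.37% towards SFZ cells and 6.17% towards CC, stand beside these single genes. *Hoxa11os*, the antisense transcript of *Hoxa11*, read 122 in SFZ cells and 1.25 in CC, at least 4.64-fold higher in SFZ cells, while its second probe set was under background on both arrays. It thus stood on the same side as *Hoxa11*. *Skap2*, which lies beyond the 3′ end of Hoxa, read 436 in SFZ cells and 1082 in CC (2.48-fold higher in CC) on its brightest probe set, 225 in SFZ cells and 698 in CC on a second and 91.0 in SFZ cells and 127 in CC on another. *Hoxb5os* read 7.24 in SFZ cells and 48.9 in CC, at least 1.74-fold higher in CC, and *Cbx5*, beside Hoxc, read 309 in SFZ cells and 599 in CC, neither past the thresholds.

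Markers of the labelled cells and of other cell types were read on the same arrays. All 12 chondrocyte markers exceeded background, 3 of them (*Matn1*, *Col9a3* and *Snorc*) higher in SFZ cells, summing to 86756 in SFZ cells and 63137 in CC, and *Col2a1* read 8251 in SFZ cells and 9074 in CC. Of 8 superficial zone markers 7 were above background, 1 higher in SFZ cells (*Prg4*, lubricin, 323 in SFZ cells against 73.6 in CC) and 3 higher in CC (*Clu*, *Thbs4* and *Vcam1*), and *Gdf5* read 93.1 in SFZ cells and 74.2 in CC. The CC array also carried skeletal muscle transcripts: 9 of 11 muscle markers were higher in CC, summing to 241 in SFZ cells and 28296 in CC, and *Myf5* and *Pax7* were under background on both arrays. Adipocyte markers (6 listed, 4 with a probe set and all 4 higher in CC, summed 1007 in SFZ cells and 10972 in CC), fibroblast markers (5 of 7, summed 14042 in SFZ cells and 23711 in CC) and leukocyte markers (3 of 6, summed 395 in SFZ cells and 1808 in CC) moved the same way, and none of 5 endothelial markers passed. These sums are weighted to the brightest probe sets, in the fibroblast list *Col3a1* and *Dcn*. Median log2 ratios of markers above background were 0.61 for chondrocyte, −0.38 for superficial zone and −6.59 for muscle lists. They were −3.94 for adipocyte, −2.98 for fibroblast, −1.19 for leukocyte and −0.27 for endothelial lists. Muscle, fibroblasts and fat of the body wall also express Hox and Meis genes, and their part in the Hox and cofactor values of CC was not tested. In bulk RNA, fewer cells of a type and less RNA per cell cannot be told apart. *Actb* read 7578 in SFZ cells and 9338 in CC.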

How the data were processed

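RNA from each cell type was labelled and hybridised to 1 array, and the authors summarised each array with MAS5. The deposited values are linear signal intensity values per probe set, in 45037 probe sets after 64 control probe sets were left out. The version, scaling target and detection calls of MAS5 were not stated in the sources. Gene names came from the annotation of the array, and 33 of 33 Hox symbols matched RefSeq (GRCm38.p6) through their Entrez numbers. No test was run, because each group holds 1 array, and that number limits the precision. Ratios were taken on the signals as deposited, a gene passed where any of its probe sets did, and medians used the brightest one by mean log2 signal, genes under background on both arrays being left out. All Hox genes are accounted for; values are given for those past the thresholds or above background, and, in the lists of cofactors, regulators and neighbours, for the 4 genes with the largest absolute log2 ratio. Marker lists are given as counts, sums and medians. *Prg4*, *Gdf5*, *Col2a1* and *Actb* were named as markers, and *Pbx2*, *Jarid2*, *Gdf11*, the Cdx genes and the other markers after their values were seen. The members and lists were chosen with earlier results of these data known. A planned comparison of homeodomain proteins was not run here. Alternatives were other scalings, thresholds, background levels, probe set rules and 64 added to both signals. Scripts (pandas 2.3.3, numpy 2.4.6 and scipy 1.17.1 under Python 3.11.15) were checked on simulated data.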

Additional observations from a re-analysis of the deposited data

How the results depend on the processing

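Of 106 alternative values of the Hox counts and medians, 93 lay within 1.5 times the count or 0.58 log2 of the median given above, and no median changed sign, although that of Hoxd became 0. With a signal minimum of 50 the genes higher in CC numbered 12 in place of 7, since *Hoxa2*, *Hoxa4*, *Hoxb6*, *Hoxc4* and *Hoxc5* then passed. With a minimum of 200 they numbered 3, and probe sets higher in CC numbered 4 in place of 10. If all probe sets of the gene were required to pass, 4 genes stood higher in CC. The shares over all genes were not taken at these other settings. Whether the changes in count are particular to Hox genes was therefore not tested. Adding 64 to both signals gave median log2 ratios of −1.12 for groups 1 to 3, −0.89 for groups 4 to 8, −1.05 for groups 1 to 8, 1.67 for groups 9 to 13 and −0.82 for Hoxc. With the background level at the highest receptor signal the median of groups 9 to 13 was 1.84. With genes under background kept at a ratio of 1, it was 0.23, that of Hoxb was −0.53 and that of Hoxd was 0. For the 13 genes past the thresholds, 89 of 104 alternative log2 ratios were close and none reversed. This tally is not a measure of robustness. The genes were chosen for a large ratio, and the filter sets the side of those given as limits. Some alternatives, such as keeping genes under background, could not change the value of a gene past the thresholds. No paired analysis was possible because each group holds 1 array. Signals near background limit every ratio given as a lower limit.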
